A study of Canis lupus familiaris with 20 samples.

Results

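The comparison described here set CNGB3-mutant against normal dog retina in eyes that had received ciliary neurotrophic factor (CNTF). The groups were 5 arrays titled as CNTF-injected CNGB3-affected retina and 5 titled as CNTF-injected normal retina, 10 of the 20 arrays in the series, and they were taken as unpaired because each came from a different dog. Both groups received 12 µg of CNTF into the vitreous of the right eye, and retinas were collected 1 week later, while the left eye of every dog received phosphate-buffered saline (PBS). The mutant dogs were homozygous for the D262N missense allele (CNGB3m/m); of the normal dogs, 4 were carriers (CNGB3+/m) and 1, replicate 3, was CNGB3+/+. Carriers thus made up most of the normal group. All 10 dogs came from a research colony with a shared genetic background. The sample labels gave an age of 8.9 weeks for every normal dog and 10.7 to 11.5 weeks for the mutants, whereas the text of the series gave an age in months, so age and genotype cannot be told apart. All 5 normal dogs were male, mutant replicates 1 and 4 were male, and mutant replicates 2, 3 and 5 were female. The p-values below measure the spread between dogs.

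RNA was labelled with 1 dye and hybridised to Agilent dog arrays of 60-base probes. Of 43603 gene probes, 25923 were well above background on at least 4 of the 5 arrays of either group and were kept; 23913 met this in both groups, 1723 only in normal retina and 287 only in mutant retina. A further 185 lost too many values to outlier marks, which left 25738 probes tested and 9484 named genes, each gene being represented by its brightest probe. Levels are log2 intensities relative to the 75th percentile of the same array, so that 0 is that percentile, and differences are mutant minus normal on the log2 scale. The retina is a mixture of cells, so fewer cells of a type and less RNA per cell cannot be told apart.

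CNTF is a cytokine of the interleukin-6 family. It binds the CNTF receptor, which signals through the shared subunits LIFR and gp130 (IL6ST) to JAK kinases and the transcription factor STAT3, and in the retina Müller glia are a main responding cell. In animals CNTF protects degenerating photoreceptors and also shortens their outer segments. CNGB3 encodes the modulatory subunit of the cyclic nucleotide-gated channel of cones, and its loss leaves cones without a light response, which is achromatopsia or day blindness. The comparison therefore asks whether retinas with and without working cones differ in gene expression once both have received CNTF.

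The 3 probes that passed the threshold and the probes with the largest differences at 2 loci are shown here because most of the results turn on them. Each line gives the first 30 of the 60 bases, in lower case with no base marked, as printed in the array files; positions are those of the files for dog build canFam2, and the annotation of that build was not used here, so exon and UTR status is not given. The unnamed probe A_11_P140156 lies at chr38:26467394-26467453 on the minus strand, the probe for transcript ENSCAFT00000027791 at chr20:53121719-53121778 (minus), the HOMER2 probe at chr3:57523553-57523612 (minus), the CRYM probe at chr6:27231793-27231852 (plus) and the TKTL1 probe at chrX:125077810-125077869 (plus).
A_11_P140156: gaaaatttaactccgtgtaaatgacgtccc
ENSCAFT00000027791: attggcggcttaaaagcatcaacagcatca
HOMER2: gacctccgcaaacaaagtgaaatcatacct
CRYM: taggtggccatttcttctgttataccagat
TKTL1: atgtttggagtcagtgccagacacatcata

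The labelled tissue matched its markers. The rod arrestin SAG was saturated on all 10 CNTF arrays, and the rod transducin subunit GNAT1 stood between 2.58 and 3.11 above the scaling level. The 10 CNTF arrays had 52.25% to 70.1% of probes well above background and a 75th percentile of 354 to 529 intensity units. Array-to-array correlations over the kept probes ran from 0.953 to 0.990. Principal component 1 (35.8% of the variance) did not separate the genotypes and component 3 (13.2%) did, with normal arrays between -28.2 and -14.0 and mutant arrays between 5.49 and 44.8. Mutant replicate 1 stood apart. It had the fewest probes above background and the highest value on component 3, and on it 23 probes were more than 4 log2 units above all 9 other CNTF arrays, among them USP2, ST8SIA1 and CDK5. Mutant replicate 4 had 6 such probes and the other 8 arrays had 0. In the PBS eye of the same dog 0 of these 23 probes exceeded the other PBS eyes by more than 1. The arrays also lay on separate slides: normal replicates 1 and 2 on slide 3, normal replicates 3 to 5 with mutant replicate 1 on slide 4, and mutant replicates 2 to 5 on slide 5. Only slide 4 held both genotypes. A difference within slide 4, or with slide as a fixed block, is therefore mutant replicate 1 against normal replicates 3 to 5. It rests on 1 mutant array, the one that stood apart, and cannot separate slide from genotype for the other mutants.

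Few differences passed the threshold between mutant and normal retina after CNTF. Of 25738 probes, 3 passed an adjusted p of 0.05 (limma with Benjamini-Hochberg adjustment over all probes tested), 0.0117% of the probes, and all 3 were lower in mutant retina. All 3 were dim and none was well above background on 4 or more arrays of the mutant group. They were thus kept by the filter only through the normal group, where they are high, so the filter itself selected for this direction. The filter kept 1723 probes through normal retina only and 287 through mutant retina only. With probes above background on all 10 CNTF arrays, or with no filter on dim probes, 0 were called. At an unadjusted p under 0.05 there were 1478 probes (5.74%), 511 higher and 967 lower in mutants, and at an unadjusted p under 0.001 there were 72 (0.28%), 29 higher and 43 lower. The quartiles of all differences were -0.13 and 0.10 around a median of -0.02, and 230 probes (0.894%) differed by at least 1 log2 unit. For 91.0% of the probes the 95% confidence interval of the difference lay within 2-fold either way, and for 63.0% within 1.5-fold.

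**Figure D1:**
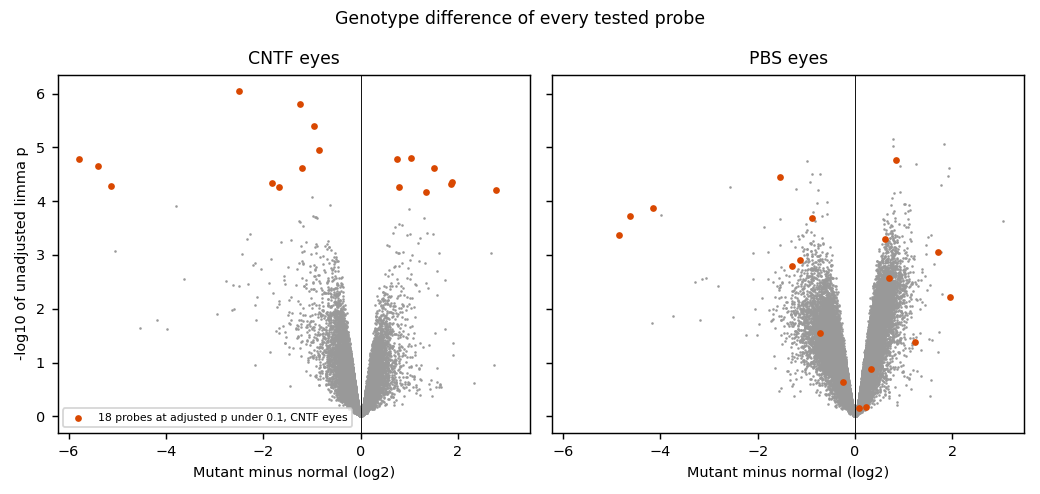
Genotype difference (mutant minus normal, log2) of every tested probe against the -log10 of its unadjusted limma p, in CNTF eyes and PBS eyes; each point is 1 probe, and coloured points are the 18 probes at an adjusted p under 0.1 in CNTF eyes. The cloud is narrower in CNTF eyes than in PBS eyes, and 3 coloured points near -5 lie far to the left in both panels.

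HOMER2, a scaffold protein of postsynaptic glutamate receptors, was the only named gene that passed. Its level in CNTF eyes was -2.42, -2.63, -2.45, -2.41 and -2.19 in normal replicates 1 to 5 and -3.23, -3.38, -3.60, -3.32 and -3.39 in mutant replicates 1 to 5. Every mutant lay below every normal retina, and 5 normal but 3 mutant arrays were above background. The difference was -0.97 ± 0.12 (SE, n = 5 and 5; adjusted p = 0.0339 by limma; exact two-sided permutation p = 0.00794, the smallest that 5 against 5 arrays allow). In the PBS eyes of the same dogs the difference was -0.89 (limma adjusted p = 0.0876). In PBS eyes 5449 of 25811 probes had a limma adjusted p under 0.1, so this value and those given below for PBS eyes single out no gene. In CNTF eyes within slide 4, where mutant replicate 1 was the only mutant array, the difference was -0.89. With a normexp background the difference was 0.19 (adjusted p = 0.752), and over 20 alternatives the adjusted p ran from 0.00453 to 0.752, under 0.05 in 4. HOMER2, above background on fewer than 4 mutant arrays, falls outside the rule for named genes and was named after its values were seen, as were the genes below that stand in none of the gene lists.

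The other called probes have no gene name in the tables used, and both passed the filter only through normal retina, where they are high. A_11_P140156 read -2.42, -2.94, -2.83, -2.71 and -2.51 in normal replicates 1 to 5 and -5.18, -4.32, -6.06, -5.35 and -5.04 in mutant replicates 1 to 5. All 5 normal arrays and 0 mutant arrays were well above background, so that normal retina was at least 2.79-fold higher (adjusted p = 0.0196 by limma), counting each mutant array at no less than its lowest signal above background. In PBS eyes 0 of the 10 arrays measured it above background, so no difference is given there. The ENSCAFT00000027791 probe read between -3.87 and -3.44 in normal and between -5.22 and -4.62 in mutant retina. Its groups did not overlap, 4 normal and 0 mutant arrays were above background, and normal retina was at least 1.42-fold higher (adjusted p = 0.0196); in PBS eyes the difference was -0.25. With a normexp background the differences of the 2 probes were -0.14 and 0.48.

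A further 15 probes lay between an adjusted p of 0.05 and 0.1. These 18 probes, 8 higher and 10 lower in mutants, were chosen after their values were seen and are given as a description. In 17 of the 18 the PBS eyes differed in the same direction, in 14 of them at an unadjusted p under 0.05, which 36.2% of all probes passed in PBS eyes. For A_11_P140156, TC60960 and DN409158, which are among the 14, at most 2 of the 10 PBS arrays were above background. The PBS eyes come from the same dogs, so the eyes are not independent groups of animals. Of all 72 probes at an unadjusted p under 0.001, 57 had the same direction in PBS eyes, against 43.9% of all probes, and 13 also passed an unadjusted p of 0.001 there, which is 18.1% of the 72 and 6.10% of the 213 such probes in PBS eyes.

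CRYM, which encodes the cytosolic thyroid hormone-binding protein mu-crystallin, had the largest difference of any named gene when each gene was read by its brightest probe. In CNTF eyes it read 3.89, 1.06, 3.55, 3.46 and 3.61 in normal replicates 1 to 5 and -2.66, -2.79, -3.30, -2.56 and 1.23 in mutant replicates 1 to 5. Mutant replicate 5 and normal replicate 2 stood apart from their groups and lay next to each other, so the groups overlapped. The same dogs stood apart in their PBS eyes, where normal retinas read 2.99, 0.46, 1.96, 2.23 and 2.06 and mutant retinas -2.98, -2.29, -3.17, -3.44 and 0.84. The difference in CNTF eyes was -5.13 ± 0.82 (SE, n = 5 and 5; 95% confidence interval -6.92 to -3.34; limma adjusted p = 0.0892; exact permutation p = 0.0159), or 35.1-fold, and in PBS eyes -4.15 (limma adjusted p = 0.0876). Without mutant replicate 5 the difference was -5.94 with an adjusted p of 0.00305, and over 21 alternatives the adjusted p ran from 0.00305 to 0.314. Within slide 4, where mutant replicate 1 was the only mutant array, the difference in CNTF eyes was -6.20. A second, overlapping CRYM probe gave -5.04, with 3 of the 5 normal arrays measured after outlier marks.

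The neighbours of CRYM on chromosome 6 differed in the same direction. ANKS4B, an ankyrin repeat protein of brush border microvilli, lies 5.9 kb from the CRYM probe and read -1.52, -2.31, -1.41, -1.30 and -1.61 in normal and -5.40, -5.70, -6.82, -6.68 and -2.55 in mutant replicates 1 to 5. Every normal retina was higher, mutant replicate 5 was again the highest mutant, and 1 mutant array was above background. The ANKS4B probe thus passed the filter only through normal retina, where it is high. Its difference was -3.80 (adjusted p = 0.149 by limma). The size is uncertain because the other 4 mutant values were not well above background. ZP2, a zona pellucida glycoprotein, lies 38.2 kb from CRYM and gave -0.94 (adjusted p = 0.199) in CNTF eyes and -0.09 in PBS eyes. Of 11 probes tested within 250 kb of CRYM, 5 were lower in mutants and 0 higher at an unadjusted p under 0.05, which 5.74% of all probes passed. The 5 include both CRYM probes, beside ANKS4B, ZP2 and TC55150, and the window was chosen for the CRYM difference. The probes 224.6 kb and farther away lay between -0.18 and 0.25.

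TKTL1, a transketolase-like protein of the X chromosome, gave probes that disagreed. The probe at chrX:125077810-125077869 read 1.67, 0.10, -1.43, -0.80 and 0.21 in normal and -4.94, -5.81, -6.80, -6.91 and -2.74 in mutant replicates 1 to 5 of the CNTF eyes. The groups did not overlap, 5 normal and 1 mutant arrays were above background, and the difference was -5.39 ± 0.78 (SE; limma adjusted p = 0.0622; exact permutation p = 0.00794). The size of this difference is likewise uncertain, since 4 of the 5 mutant values were not well above background. The probe passed the filter only through normal retina, where it is high. Over 20 alternatives its difference ran from -6.06 to -2.07 and its limma adjusted p from 0.00658 to 0.655, under 0.05 in 4. PBS eyes gave -4.63 (limma adjusted p = 0.0876). The adjacent tentative transcript TC53277 gave -5.78, with 5 normal and 3 mutant arrays above background, so it too was kept only through normal retina. The brighter TKTL1 probe, 14.5 kb away at chrX:125063271-125066803, gave only -0.51 (adjusted p = 0.795). Among 32 probes within 250 kb of it, 3 were lower and 0 higher at an unadjusted p under 0.05, a p that 5.74% of all probes passed. These were both TKTL1 probes and TC53277, so no other neighbour passed. The long-wave cone opsin OPN1LW, 36.4 kb away, gave -0.07. The reference tables hold no isoform structure in this build, so which exons the probes meet was not determined.

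**Figure D2:**
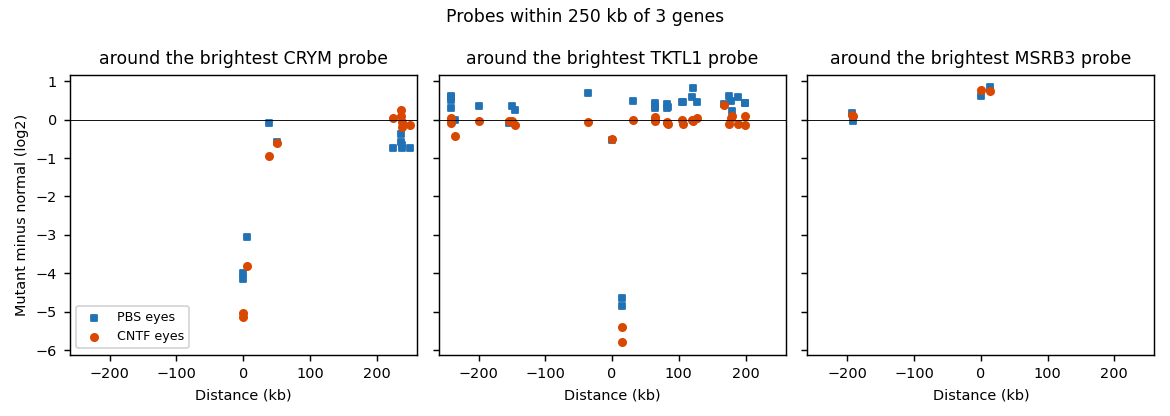
Genotype difference (mutant minus normal, log2) of probes within 250 kb of the brightest CRYM, TKTL1 and MSRB3 probes against distance in kb, in CNTF eyes (circles) and PBS eyes (squares). The large differences sit on 1 to 3 adjacent transcripts at each locus, and most probes beyond them lie near 0 in CNTF eyes.

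ACOX2, a peroxisomal oxidase of branched fatty acids and bile acid precursors, was lower in every mutant. It read 1.62, 1.17, 1.41, 1.92 and 1.07 in normal and 0.02, 0.02, 0.49, 0.37 and 0.30 in mutant replicates 1 to 5. The groups did not overlap in either eye; the difference was -1.20 ± 0.18 (SE; adjusted p = 0.0622 by limma; exact permutation p = 0.00794) in CNTF eyes and -1.54 in PBS eyes (limma adjusted p = 0.0766). PRSS33, a serine protease, gave -1.82 with 4 normal and 2 mutant arrays above background. Its probe passed the filter only through normal retina, where it is high. Over 20 alternatives its difference ran from -2.40 to -0.004 and its limma adjusted p from 0.0151 to 0.995, under 0.05 in 2.

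ATP4A, the catalytic subunit of the gastric proton pump, was higher in every mutant. It read -1.84, -1.72, -2.42, -1.46 and -2.41 in normal and 0.19, 0.60, -0.35, 0.07 and -1.03 in mutant replicates 1 to 5. Mutant replicate 5 was nearest to the normals in both eyes. The difference was 1.86 ± 0.30 (SE; adjusted p = 0.0892 by limma; exact permutation p = 0.00794) and 1.71 in PBS eyes. MSRB3, a methionine sulfoxide reductase of the endoplasmic reticulum and mitochondria, read 0.79 to 1.12 in normal and 1.58 to 2.01 in mutant retina without overlap. It gave 0.78 (adjusted p = 0.0892), the expressed sequence DN412840 13.2 kb away gave 0.74, and in PBS eyes the same probes gave 0.63 and 0.84. POLE2, a subunit of DNA polymerase epsilon, read -2.29 to -1.73 in normal and -1.05 to 0.05 in mutant retina; its difference was 1.505 (adjusted p = 0.0622) in CNTF eyes and 0.32 in PBS eyes.

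TREM2, a lipid receptor of microglia, was the remaining named gene of this set. It read -3.65, -4.14, -3.20, -3.27 and -3.71 in normal and -2.66, -1.88, -2.26, -1.87 and -2.61 in mutant replicates 1 to 5. Every mutant retina was above every normal retina, with 4 normal and 5 mutant arrays above background. The difference was 1.34 ± 0.22 (SE; adjusted p = 0.0969 by limma; exact permutation p = 0.00794). In PBS eyes 0 normal and 1 mutant arrays measured it above background, so its difference there, 0.22, is between values near background. Within slide 4, where mutant replicate 1 was the only mutant array, the difference in CNTF eyes was 0.73.

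**Figure D3:**
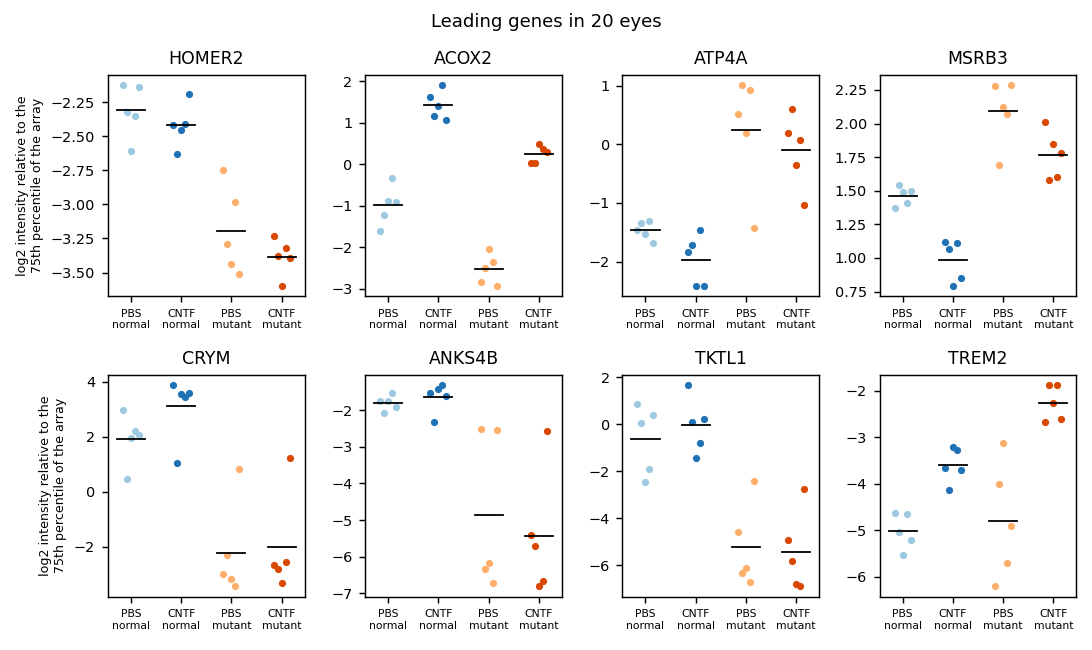
Level of 8 leading genes (log2 intensity relative to the 75th percentile of the array) in 20 eyes; each point is 1 eye of 1 dog, 5 per group, and the line is the group mean. Mutant levels of HOMER2, ACOX2, CRYM, ANKS4B and TKTL1 are below and of ATP4A and MSRB3 above the normal mean in both PBS and CNTF eyes, while TREM2 is near background in PBS eyes.

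Below an adjusted p of 0.4 but above 0.1 lay genes for which several probes agreed. MED13L, a subunit of the Mediator kinase module, gave 0.85 and 0.95 on 2 probes (adjusted p = 0.231 and 0.276) without overlap, and another 0.61 (adjusted p = 0.542), and the first 2 gave -0.06 and -0.13 in PBS eyes. AQP3, a channel for water and glycerol, gave 1.22 and 1.17 (adjusted p = 0.315 and 0.332), and DAK, an enzyme that phosphorylates dihydroxyacetone, gave -1.25 and -1.17 (adjusted p = 0.213 and 0.347), both without overlap. INS, with -0.53 on 1 probe and 0.50 on the other, and KIAA0930 and TCP11 gave probes that disagreed.

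Lists of genes for retinal cell types and pathways were read by counts at an unadjusted p under 0.05, because 0 of the 490 measured list members passed the adjusted threshold. Over all 9484 genes, 2.11% were higher and 3.51% lower in mutants at that p, and the groups of 1.12% of the genes did not overlap. The lists were chosen with earlier results of these data known, so their shares describe them and do not test them. Of the 490 list genes 47 (9.59%) passed an unadjusted p of 0.05, against 5.62% of all genes. In 15 of the 39 lists no member did, among them outer segment structure, photoreceptor transcription factors, gp130 and JAK-STAT signalling, reactive gliosis, antigen presentation, glycolysis, cell cycle, immediate early genes and cholesterol synthesis.

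The cone genes were close in level between the genotypes in CNTF eyes, with ARR3 the largest difference. CNGB3 itself carries a missense allele in the mutants, so its probe does not check the genotype. It read -1.24, -1.25, -1.84, -1.49 and -1.51 in normal and -1.89, -1.54, -1.61, -1.27 and -1.61 in mutant replicates 1 to 5, with overlap, and the difference was -0.12 (95% confidence interval -0.45 to 0.21; adjusted p = 0.999). In PBS eyes CNGB3 gave -0.50 (limma unadjusted p = 0.0304, adjusted p = 0.112). Of 15 cone genes, 0 were higher and 2 lower at an unadjusted p under 0.05, and the median difference was -0.07 against -0.02 for all genes. The median was 0.02 with a normexp background, and in PBS eyes it was -0.22 against 0.10 for all genes. Cone arrestin (ARR3), which shuts off cone opsins, read 1.67, 1.47, 1.64, 1.08 and 1.41 in normal and 0.36, 1.29, 0.30, 0.79 and -0.56 in mutant retina. Only mutant replicate 2 lay within the normal range, and the difference was -1.01 ± 0.28 (SE; adjusted p = 0.542 by limma; exact permutation p = 0.0159), against -0.01 in PBS eyes. The cone transducin subunit GNAT2 gave -0.46 (adjusted p = 0.775) and -0.87 in PBS eyes. The cone phosphodiesterase subunits PDE6H and PDE6C gave 0.12 and 0.07, and the opsins OPN1SW and OPN1LW -0.18 and -0.07.

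Rod genes lay slightly lower in the mutants, without a call. Of 16 rod phototransduction genes 11 had a negative and 5 a positive difference, with a median of -0.17, and 0 were higher at an unadjusted p under 0.05. GNAT1 read 2.89, 2.64, 2.74, 2.70 and 3.06 in normal and 3, 3.11, 2.66, 2.58 and 2.75 in mutant replicates 1 to 5, with overlap, and gave 0.01 (adjusted p = 0.999). SAG was saturated in both groups, so no difference is given for it. In PBS eyes the median of these genes was 0.41, with 12 of 16 higher at an unadjusted p under 0.05, where 26.1% of all genes were higher and 10.8% lower.

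All 14 visual cycle genes were lower on average in mutant retina, though none passed the adjusted threshold. These enzymes and carriers regenerate the chromophore of the opsins in pigment epithelium, Müller glia and photoreceptors. Their median was -0.29, 0 were higher and 4 lower at an unadjusted p under 0.05, and in PBS eyes the median was 0.11. The 4 were RETSAT, a retinol saturase (-0.57), the retinol dehydrogenases RDH10 (-0.34) and RDH5 (-0.73), and STRA6, a retinol transporter (-0.71), with adjusted p from 0.708 to 0.782. RETSAT gave 0.15 with a normexp background. Without mutant replicate 1, 5 members were lower at that p, and with sex as a covariate 1 was. With slide as a fixed block, which sets mutant replicate 1 alone against normal arrays, the median was -0.43. RDH5 read 2.17, 1.32, 2.47, 2.49 and 3.06 in normal and 2.16, 1.19, 1.77, 1.41 and 1.34 in mutant retina, with overlap. RPE65, the isomerase of pigment epithelium, was saturated on 4 normal and 2 mutant arrays.

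Markers of pigment epithelium and melanocytes, cells that can adhere to a dissected retina, moved with the visual cycle genes, and their part in the result was not tested. Of 10 such markers 9 were lower on average and 0 were higher and 2 lower at an unadjusted p under 0.05, with a median of -0.24. SLC45A2, a melanosome transporter, read -3.10, -3.31, -1.80, -2.54 and -1.56 in normal and -4.06, -5.22, -6.35, -3.61 and -3.98 in mutant retina. The groups did not overlap, and the difference was -2.18 (adjusted p = 0.389 by limma). With 4 normal and 2 mutant arrays above background, its probe passed the filter only through normal retina, where it is high. The size of the SLC45A2 difference is therefore uncertain. RDH5 and RPE65 belong to both lists. The summed level of the 10 markers, in multiples of the scaling level, ran from 151 to 189 in normal and from 135 to 190 in mutant retina, and includes the partly saturated RPE65.

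The CNTF signalling chain showed no member at an unadjusted p under 0.05 among 13 measured genes, with a median of 0.05. STAT3 read 2.47, 2.30, 2.34, 2.04 and 2.40 in normal and 2.33, 2.56, 2.17, 2.56 and 2.21 in mutant replicates 1 to 5. The groups overlapped, and the difference was 0.06 (95% confidence interval -0.22 to 0.34), against 0.65 in PBS eyes (limma adjusted p = 0.0876). LIFR gave -0.22 (interval -0.62 to 0.18), the endogenous CNTF transcript 0.15 (-0.30 to 0.60) and the feedback inhibitor SOCS1 -0.28 (adjusted p over 0.9 in each). CNTFR and IL6ST were not kept by the background rule. The glial filament GFAP, the usual sign of Müller cell stress, read -3.41, -4.00, -2.74, -3.21 and -2.36 in normal and -3.19, -2.49, -2.68, -0.95 and -2.82 in mutant retina. Mutant replicate 4 was the highest; the groups overlapped and the difference was 0.72 (interval -0.18 to 1.62; adjusted p = 0.972). Vimentin (VIM), another glial filament, gave -0.34 (adjusted p = 0.886). Of 12 gliosis genes 0 were higher or lower at an unadjusted p under 0.05.

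**Figure D4:**
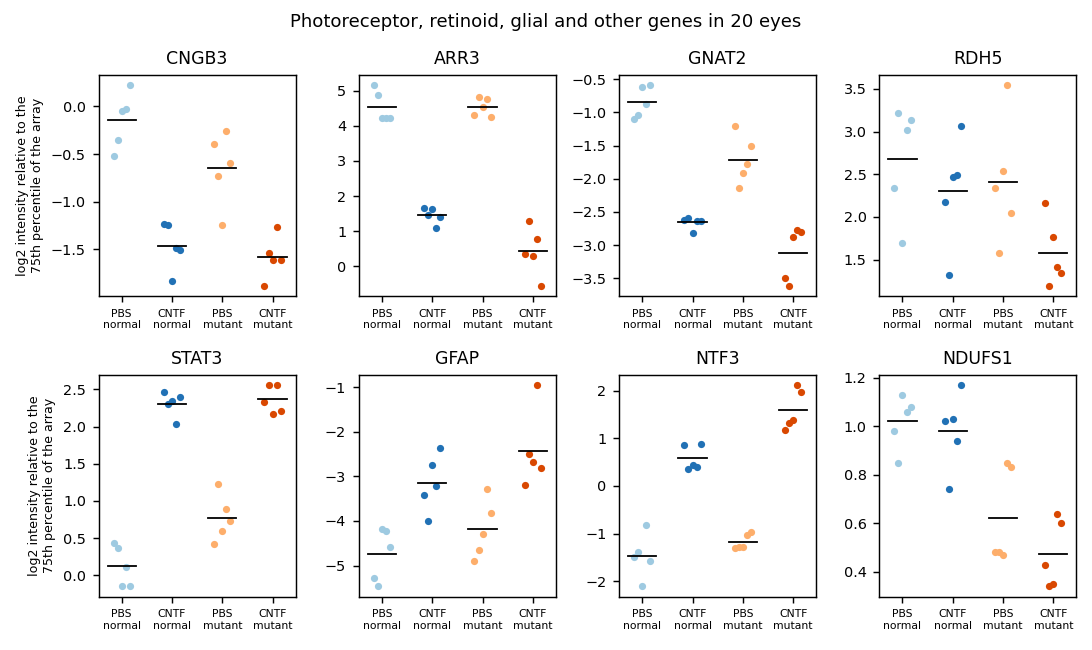
Level of 8 photoreceptor, retinoid, glial, trophic and mitochondrial genes (log2 intensity relative to the 75th percentile of the array) in 20 eyes; points are single eyes, 5 per group, and lines are group means. ARR3 is lower in CNTF-treated mutants than in CNTF-treated normals while the PBS groups differ by -0.01, and STAT3 groups overlap after CNTF.

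Immune and microglial genes gave a few differences in both directions. Of 17 microglia and macrophage markers, 3 were higher and 0 lower at an unadjusted p under 0.05: TREM2, lysozyme (LYZ, 0.73, adjusted p = 0.533) and the Fc receptor FCGR1A (0.44, adjusted p = 0.757). With slide as a fixed block, which sets mutant replicate 1 alone against normal arrays, the list median was -0.12 in place of 0.09. The broad markers of these cells differed little, AIF1 at 0.14, CSF1R at -0.11, ITGAM at 0.13 and TYROBP at 0.02. The summed level of the 17 markers ran from 30.3 to 43.4 in normal and from 21.2 to 46.6 in mutant retina. Among 19 interferon genes MX2 (0.56) and SAMD9L (0.60) were higher, and among 14 complement genes the C5a receptor C5AR1 (0.87, with 1 normal and 4 mutant arrays above background). Of 10 acute phase genes, haptoglobin (HP) gave 0.57 without overlap between groups (adjusted p = 0.429), SERPINA1 0.61 and ITIH4 -0.67. The chemokines CCL19 and CCL5 gave -0.93 and -0.99 (adjusted p = 0.507 and 0.834). Of 13 lymphocyte markers CD8A (0.48) was higher and the B cell receptor chains CD79A (-0.48) and CD79B (-0.35) were lower at an unadjusted p under 0.05; CD79B gave 0.45 with a normexp background.

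Among trophic factors, NTF3 (neurotrophin 3) read 0.86, 0.35, 0.44, 0.40 and 0.88 in normal and 1.18, 1.33, 1.38, 2.12 and 1.97 in mutant replicates 1 to 5. The groups did not overlap, and the difference was 1.01 ± 0.21 (SE; adjusted p = 0.276 by limma; exact permutation p = 0.00794), against 0.30 in PBS eyes. FGF1 gave 0.55 and the other 12 of 14 factors did not pass an unadjusted p of 0.05. Within slide 4 NTF3 gave 0.60. Bipolar cell genes had a median of 0.22 with 2 of 11 higher, the glutamate receptor of ON bipolar cells GRM6 (0.45) and the homeobox factor ISL1 (0.40), and a median of 0.23 in PBS eyes. With a normexp background or sex as a covariate 0 of the 11 were higher, and the median was 0.06 and 0.12. With slide as a fixed block the median was 0.08. Of 14 amacrine genes the vesicular acetylcholine transporter SLC18A3 (0.88) was higher and the neuropeptide CCK (-0.61) lower; SLC18A3 gave -0.03 with slide as a block.

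Mitochondrial and protective genes differed by small amounts. Of 16 respiratory chain genes 2 were lower at an unadjusted p under 0.05, and neither overlapped between groups: NDUFS1, a core subunit of complex I (-0.51, adjusted p = 0.389), and NDUFA4L2 (-0.60, adjusted p = 0.389). PBS eyes gave -0.40 and -0.50 for the same genes. Of 16 antioxidant genes, GSTT1 (-0.57), GSR (-0.27), NQO1 (-0.29) and SOD3 (-0.24) were lower and 0 higher, and without mutant replicate 1 only 1 was lower; GSTT1 gave 0.22 with slide as a block. The chaperone DNAJB1 gave -0.58 without overlap (adjusted p = 0.507). In the matrix list the gelatinase MMP2 gave 0.58 without overlap (adjusted p = 0.334) and the collagens COL3A1 and COL1A1 -0.56 and -0.40. Endothelial CLDN5 (-0.53) and pericyte CSPG4 (-0.64) were lower at an unadjusted p under 0.05. With a normexp background CLDN5 gave 0.27, and with that background or sex as a covariate 0 of the 11 list members were lower. Within slide 4 CLDN5 gave 0.004. CASP4 gave 0.54, SHMT2 -0.35, and the lens crystallin CRYGA -0.93 with no overlap.

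Sex differed between the groups and showed in KDM5D. KDM5D, a Y-linked gene, read 0.40 to 0.64 in the normal dogs, 0.76 and 0.48 in mutant replicates 1 and 4, and -2.18 to -1.79 in mutant replicates 2, 3 and 5, as the labelled sexes have it. Of 9 sex-linked genes 2 were higher (EIF2S3, 0.85, and DDX3X, 0.37) and KDM5D was lower. EIF2S3 did not follow the labelled sex. Male mutant replicate 4 read 2.47, beside 2.60, 2.62 and 2.72 in the female mutants. Male mutant replicate 1 read 1.55, within the normal range of 1.44 to 1.64. With the 2 male mutants only, CRYM gave -5.73, ACOX2 -1.24, ATP4A 2.1, HOMER2 -0.86 and TREM2 1.33. On chromosome 29, which carries CNGB3, 23 of 256 probes (8.98%) passed an unadjusted p of 0.05, against 5.74% of all probes. Within 5 Mb of the CNGB3 probe 2 of 63 passed, a share below that of all probes. Neither share was tested.

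**Figure D5:**
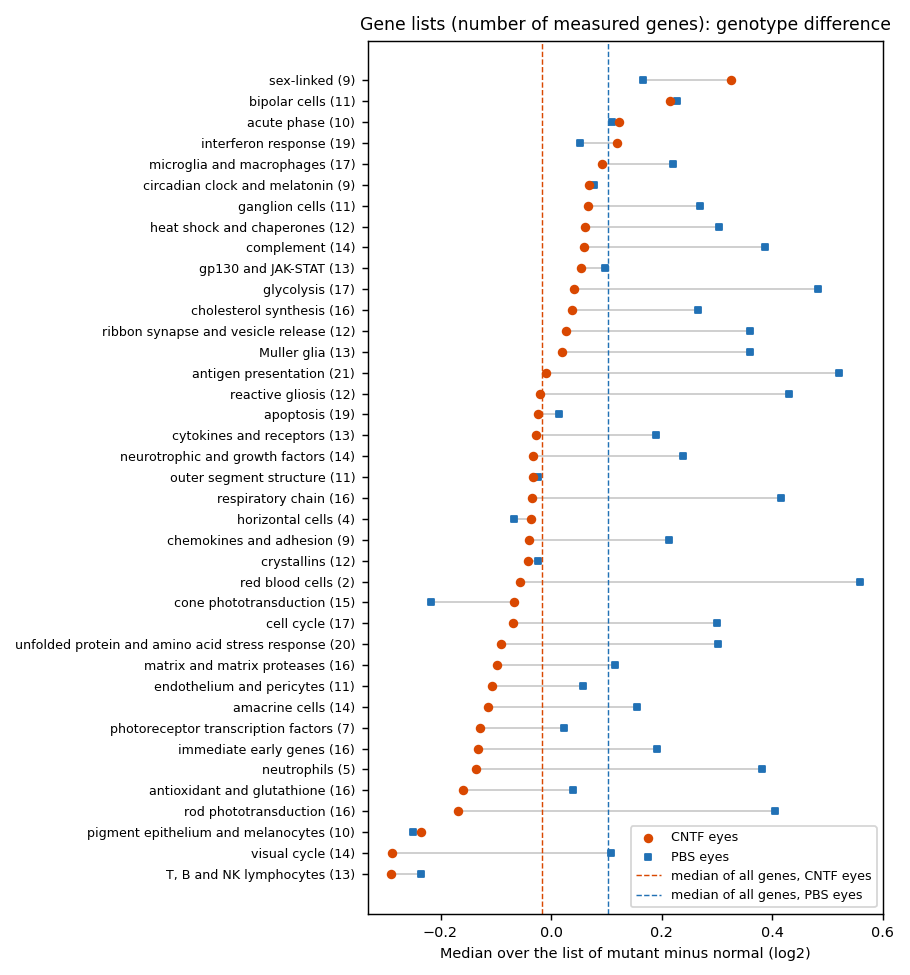
Median over each of 39 gene lists of the genotype difference (mutant minus normal, log2) in CNTF eyes (circles) and PBS eyes (squares), with the number of measured genes in brackets; dashed lines are the medians over all genes. In CNTF eyes the lists lie between -0.29 and 0.33, and the rod, glycolysis and antigen presentation lists lie at -0.17, 0.04 and -0.01 against 0.41, 0.48 and 0.52 in PBS eyes.

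In PBS eyes the genotypes differed more broadly by unadjusted p, but no probe passed the adjusted threshold. Of 25811 probes tested, 9346 (36.2%) passed an unadjusted p of 0.05 and 213 (0.825%) one of 0.001, while 0 passed an adjusted p of 0.05 by limma, the lowest being 0.0766. At a limma adjusted p under 0.1 there were 5449. The quartiles of the differences were -0.27 and 0.35. That count rests on 1 array: without PBS normal replicate 1, 6979 probes were called. Normal replicates 1 to 4 of the PBS eyes shared slide 1, which held no mutant, so slide and genotype are largely confounded there. The test of whether the genotype difference itself differed between CNTF and PBS eyes, with the dog as a block, gave 0 calls by limma, a lowest adjusted p of 0.0859, and 9818 probes (38.2%) at an unadjusted p under 0.05; without the dogs normal replicate 1 or 2 it gave 5049 or 4766 calls. Among genes, 27.3% had a lower genotype difference in CNTF than in PBS eyes at an unadjusted p under 0.05, against 11 of 16 rod genes, 11 of 17 glycolysis genes and 5 of 14 visual cycle genes. These shares are a description of the lists beside the background and not a test of them.

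Leaving out mutant replicate 1 raised the count of calls in CNTF eyes from 3 to 65, of which 54 were lower and 11 higher in the other 4 mutants. For 37 of the 65 that dog lay within the range of the normal dogs. Those 4 mutants are also the 4 arrays of slide 5, so the slide and this set of dogs cannot be told apart. Sex is largely confounded as well, since mutant replicates 2, 3 and 5 were female and every normal dog was male. Without mutant replicate 1, 6 of 9 sex-linked genes were higher at an unadjusted p under 0.05, against 2 with all dogs. Of the 65, 15 had the same direction and 4 the opposite direction at an unadjusted p under 0.05 in PBS eyes, where the median over the set was 0.08. The muscle dehydrogenase DHRS7C (-2.83, adjusted p = 0.000391), the homeobox gene HOXD10 (-2.33, adjusted p = 0.000922), the lipase CEL (-1.24), RGS3 (-3.21), the cathepsin CTSG (-1.86), tyrosine hydroxylase (TH, -1.94) and the cholesterol transporter ABCG1 (-1.14) were lower, and EIF2S3 (1.06), TSSK6 (1.99), RHBDD2 (0.96), POLE2 (1.58) and TREM2 (1.44, adjusted p = 0.0272) higher in the 4 mutants. Of these genes, HOXD10, CTSG and TH had 1, 3 and 3 of the 5 mutant arrays above background. They passed the filter only through normal retina, where they are high, so the sizes of their differences are uncertain. The filter kept 1723 probes through normal retina only and 287 through mutant retina only, which bears on the excess of lower calls. Leaving out any normal array other than replicate 2 gave 0 calls, and leaving out mutant replicate 5 gave 10.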

How the data were processed

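Dog retinal RNA from 20 eyes was hybridised to 1-colour Agilent arrays. Per the file headers and the submitters' processing notes, the authors scanned and extracted spots with Agilent Feature Extraction 9.5.3.1, and the deposited processed intensity is background-subtracted and detrended within each array. The deposited log2 matrix, made with Partek 6.4 per the submitters' processing notes, holds columns of 1 shared distribution; its centring is not stated, and it served as an alternative. Outlier spots were left out and saturated ones kept. Intensities were put on the log2 scale and each array's 75th percentile was subtracted. Probes that either group measured above background on 4 or more of its arrays were tested with limma 3.58.1 (R 4.3.3; lmFit, eBayes), two-sided, with Benjamini-Hochberg adjustment over all probes and at least 3 values per group. The code was tested on simulated data. Signal over background limits dim probes, and the number of arrays limits the precision.

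Probe names came from current symbols for 15673 probes, accessions for 1661, gene numbers for 1828, synonyms for 116 and the file's own name for 1320; 22732 carry only a transcript or clone identifier. A gene was represented by its brightest probe over the 10 CNTF arrays. Named genes were, by rule, the 10 largest called rises and falls without overlap and above background on at least 4 arrays of both groups, called genes below background in 1 group, 9 genes of the CNTF and cone pathways, called list members (otherwise the member with the lowest p of each list) and calls for the difference between eyes; others were chosen after their values were seen. The comparison, its members and the gene lists were chosen with earlier results of these data known.

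Replicate numbers name different dogs in the 2 genotypes, so they do not pair the groups; same-numbered arrays had deviations correlated from -0.606 to -0.083 over all probes. PBS and CNTF eyes share a dog, which was the block in the test of the difference between eyes. Over the 500 most variable probes the eyes of a dog correlated at 0.164 to 0.275 in normal and 0.262 to 0.788 in mutant dogs, and over all probes at -0.176 to 0.766. Alternatives changed the normalization, background, filter, slide, sex, arrays used and replicate left out. Results for some members of the gene lists are not reported here.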

Additional observations from a re-analysis of the deposited data

Results flagged for a closer look

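Over 74 named items, single arrays stood far from the other 4 of their group 14 times in 154 groups (9.09%), where the distance used is set so that chance gives about 1 in 20 normally distributed groups; some of these items were chosen after their values were seen. CRYM in normal replicate 2 was 1.06 against 3.46 to 3.89 in the other normal retinas, and in mutant replicate 5 it was 1.23 against -3.30 to -2.56. Mutant replicate 1 was apart for E2F1 (-2.81 against -4.58 to -4.41), NSDHL (-0.47 against -3.01 to -2.50), EIF2S3 (1.55 against 2.47 to 2.72) and TSSK6 (-2.63 against -0.97 to -0.42). Mutant replicate 4 was apart for EGR1 (-1.65 against -0.71 to -0.37), ZP2 (-3.24 against -2.68 to -2.51) and the expressed sequence BU750241 (-4.94 against -2.46 to -2.15). In normal retina the distant values were CD79B in replicate 4 (-2.72), CRYGA in replicate 1 (0.15), ZNF341 in replicate 5 (-3.23), BU750241 in replicate 5 (-5.81) and TC60960 in replicate 3 (-5.14). No probe passed the adjusted threshold for a genotype difference that differed between CNTF and PBS eyes.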

How the results depend on the processing

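The count of 3 called probes depended on the settings. It was 0 with quantile normalization, with the deposited log2 matrix, with probes above background on all 10 CNTF arrays and with no filter on dim probes. It was 1 with sex as a covariate, 7 with male dogs only, 23 with all 20 arrays in 4 groups, 37 with slide as a random block and 99 with slide as a fixed block, 86 of these higher in mutants and resting on mutant replicate 1 against 3 normal arrays. Calls of at least 1 log2 unit numbered 0 with the first 4 of these settings and 1, 7, 14, 25 and 99 with the others. Leaving out 1 replicate gave 0 to 65 calls, and 0 to 55 of at least 1 log2 unit. With the replicate number as a block there were 0 calls by either count, although the numbers do not pair the dogs. For PBS eyes, which had 0 calls, a normexp background gave 2 and leaving out 1 replicate gave 0 to 6979; the difference between eyes ran from 0 to 5049 with 1 dog left out and was 0 with no replicate block. Directions reversed with a normexp background for ENSCAFT00000027791 (0.48), HOMER2 (0.19), CO632996 (0.19), DN409158 (0.31), RETSAT (0.15), CD79B (0.45), CLDN5 (0.27), ZNF341 (0.32) and ITIH5 (0.13), and with slide as a fixed block for SLC18A3 (-0.028), CLDN5 (0.004), GSTT1 (0.22) and TSSK6 (-0.13). The cause was not tested. The list counts without mutant replicate 1 were chosen after seeing the data.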

Other observations

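Some probes that were tested and not called stood apart on a single array. On mutant replicate 1 of the CNTF eyes ST8SIA1, a ganglioside synthase, read 7.31 against -4.65 to -3.36 on the other 9 CNTF arrays, and SESN3, a stress-response gene, read 7.20 against -1.89 to -0.91. In the PBS eye of that dog they read -3.16 and -0.72.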
